A study of Mus musculus with 12 samples.

Results

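Iron and heme handling in the mouse ileum was followed through 8 genes of 44205 in the expression table, chosen by gene name: Slc11a2, Cybrd1, Tfrc, Slc40a1, Heph, Fth1, Ftl1 and Hmox1. The ileum came from 12 C57BL/6 mice, with 3 mice in each of 4 diet groups and no genetic change given. Mice were 6 weeks old when feeding began, ate their diet for 10 weeks and were 16 weeks old at sampling. NF mice (the normal diet, ND) received a normal-fat diet with plain water, and NF_Sugar mice the same normal-fat diet with a 23% (w/v) sugar drink. HF mice received a high-fat diet with 60% of the energy as fat and plain water, and HF_Sugar mice (the Western diet, WD) the high-fat diet with the sugar drink. Whole ileal tissue was sequenced, so fewer cells of a type and less RNA per cell cannot be told apart. Levels are given as RPKM, which corrects read numbers for the length of a gene and the depth of a library. Between genes they can be compared only roughly, because all annotated exons of a gene count toward its length, whichever forms are made.

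Dietary iron is absorbed mainly in the duodenum. The reductase CYBRD1 and the transporter DMT1 (Slc11a2) carry it into the enterocyte, ferritin (Fth1 and Ftl1) stores it, and ferroportin (Slc40a1) exports it with the help of the ferroxidase hephaestin (Heph). The transferrin receptor (Tfrc) takes up iron from the blood side, mostly for dividing crypt cells, and heme oxygenase 1 (Hmox1) frees iron from heme. Much of this control acts on RNA after transcription: iron regulatory proteins bind a hairpin, the iron-responsive element, which blocks translation when it lies before the coding sequence and protects the mRNA when it lies after it.

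Hairpins of that form were searched for in the untranslated regions (UTRs) of the annotated mouse transcripts (GENCODE M21, build GRCm38). They show on which of the 8 mRNAs this control could act. The search looked on the transcript strand for a C, 5 bases, the loop CAGTGN and 5 more bases, with at least 4 of the 5 opposed bases able to pair. Of 21877 genes with a coding transcript, 0.937% held such a match in a 5′ UTR and 3.99% in a 3′ UTR, and 5 of the 8 iron genes held one. Fth1, Ftl1 and Slc40a1 had it in the 5′ UTR, and Slc11a2 and Tfrc in the 3′ UTR, the latter with 4 copies. The windows of 30 bases are printed with the loop in capitals.
Fth1, chr19:9982731-9982760, plus strand: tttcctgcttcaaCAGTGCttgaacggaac
Ftl1, chr7:45459779-45459808, minus strand: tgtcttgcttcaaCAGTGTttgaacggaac
Slc40a1, chr1:45925465-45925494, minus strand: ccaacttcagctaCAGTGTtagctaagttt
Slc11a2, chr15:100395153-100395182, minus strand: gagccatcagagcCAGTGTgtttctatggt
Tfrc copy 1, chr16:32631218-32631247, plus strand: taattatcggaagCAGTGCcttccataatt
Tfrc copy 2, chr16:32631597-32631626, plus strand: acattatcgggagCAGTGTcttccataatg
Tfrc copy 3, chr16:32631662-32631691, plus strand: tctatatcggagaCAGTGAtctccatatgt
Tfrc copy 4, chr16:32631709-32631738, plus strand: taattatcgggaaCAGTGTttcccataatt
All 5 opposed bases could pair in the windows of Fth1, Ftl1, Slc40a1 and Tfrc, and 4 could in the Slc11a2 window. The Fth1 and Ftl1 windows share the arms of the hairpin, while no 2 Tfrc copies have the same 5′ arm, although copies 1 and 2 have the same 3′ arm. In Slc11a2 the window is given for the transcript Slc11a2-205, the first by name that holds it, and later ones may hold it too. RPKM summed over a gene's exons does not tell forms with the window from forms without it. A match is a description of the letters, and no binding was measured here.

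The libraries held 15.3 to 39.0 M reads, of which 11.8 to 30.3 M fell in genes, as recovered from the steps between low RPKM values. Of 17662 genes tested with limma, none passed an adjusted p of 0.05 in 6 of the 8 comparisons, and 1 passed in HF_Sugar against HF and in HF_Sugar against NF_Sugar. That gene, named after its values were seen, was Il1b, an inflammatory cytokine, at 2.88, 2.71 and 2.96 RPKM in HF_Sugar and at 0.263 to 0.790 RPKM in the other 9 libraries. Its 9 other values were whole numbers of reads, while those in HF_Sugar came out as 123.92, 141.46 and 92.05 reads. In HF_Sugar replicates 1 and 2 the Il1b value was given to 7 significant digits. Only 17 of the 364129 values above 0 had more than 6 digits, and 0 of the 96 values of the iron genes did. The origin of these Il1b values was not tested. Among the iron genes, Slc40a1, Cybrd1 and Hmox1 were whole reads within 0.03 in 12 of 12 libraries, Heph in 10 and Tfrc in 9, while Slc11a2 and Ftl1 were so in 1 and Fth1 in 0. The check loses its resolution at high counts, because RPKM of at most 6 digits and the recovered depth leave larger errors there. At 62931 to 144909 reads for Fth1 it cannot tell whole reads, and at 8185 to 24891 for Ftl1 it tells little. On the first principal component (39.5% of the variance), 4 libraries stood apart, 1 in each group. They were replicate 2 of NF, HF and HF_Sugar and replicate 1 of NF_Sugar. The 5 ileal markers summed to 3343 to 10871 RPKM, most of it from Fabp6 (2415 to 9713 RPKM), and the duodenal markers Gata4, Pdx1 and Onecut2 to 0.449 to 5.03 RPKM. The lowest ileal marker, Fgf15, was at 17.1 to 66.7 RPKM in 11 libraries but at 2.98 RPKM in NF_Sugar replicate 2.

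The iron genes spanned more than 3 orders of magnitude, and the order of their levels kept storage at the top. Averaged over the 12 libraries, Fth1 stood at 1170 RPKM (rank 49 of all genes) and Ftl1 at 438 RPKM (rank 127). The export ferroxidase Heph followed at 17.4 RPKM, then Tfrc at 11.8, Slc11a2 at 7.66, Slc40a1 at 3.56, Hmox1 at 1.06 and Cybrd1 at 0.443 RPKM. Single libraries overlapped between neighbours in this order for Heph with Tfrc, Tfrc with Slc11a2, Slc40a1 with Hmox1, and Hmox1 with Cybrd1. Fth1 and Ftl1 did not overlap (lowest Fth1 829, highest Ftl1 661 RPKM), and Slc11a2 (lowest 6.498) did not overlap Slc40a1 (highest 5.23 RPKM). Cybrd1, the duodenal reductase, reached 0.5 RPKM in 4 of 12 libraries. All 8 genes passed the filter on low values (0.5 RPKM in at least 3 libraries).

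**Figure D1:**
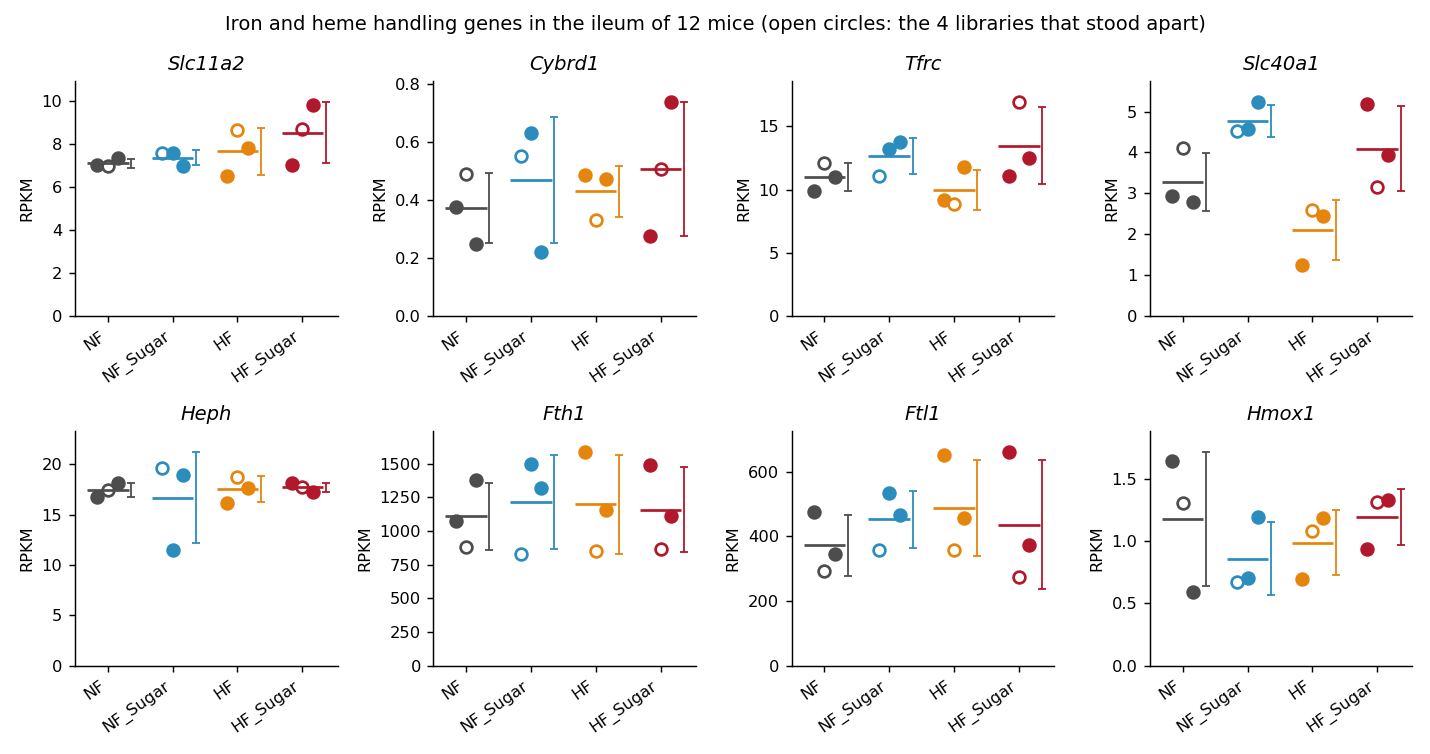
RPKM of the 8 iron and heme handling genes (y axes, each from 0) in the 4 diet groups (x axes). Each circle is 1 mouse, the line is the group mean, the bar beside it 1 SD (n = 3), and open circles are the 4 libraries that stood apart. Slc40a1 was lowest in HF (1.25 to 2.60 RPKM) and highest on average in NF_Sugar, while the 4 open circles are the lowest Fth1 values.

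Slc40a1 (chr1:45908068-45926523, minus strand), the only known cellular iron exporter, had the largest sugar and fat main effects of the 8 genes. It was higher with the sugar drink and lower with the high-fat diet, and was the only one of the 8 genes whose groups did not overlap in any pair. It stood at 2.94, 4.10 and 2.79 RPKM in NF, and at 4.52, 4.57 and 5.23 RPKM in NF_Sugar. In HF it stood at 1.25, 2.60 and 2.46 RPKM, and in HF_Sugar at 5.19, 3.14 and 3.95 RPKM. Each NF_Sugar mouse thus lay above each NF mouse, each HF mouse below each NF mouse, and each HF_Sugar mouse above each HF mouse. HF_Sugar overlapped both NF and NF_Sugar.

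The group means were 3.28 ± 0.718 RPKM in NF, 4.77 ± 0.395 in NF_Sugar, 2.10 ± 0.741 in HF and 4.10 ± 1.03 in HF_Sugar (SD, n = 3 each). HF_Sugar was 1.95-fold HF, a difference of 0.72 ± 0.23 (SE) between means of log2(RPKM + 1), a scale that understates the change of low genes. The other log2 differences were 0.42 ± 0.23 for NF_Sugar minus NF, -0.53 ± 0.23 for HF minus NF, -0.23 ± 0.23 for HF_Sugar minus NF_Sugar and 0.19 ± 0.23 for HF_Sugar minus NF. These comparisons share groups and are not independent of one another. Non-overlap was common among all genes tested, at 8.35% in HF against NF, 5.86% in NF_Sugar against NF and 9.83% in HF_Sugar against HF, against 1 of 8 iron genes in each. In HF_Sugar against NF and in HF_Sugar against NF_Sugar, 0 of 8 iron genes and 10.2% and 5.93% of all genes did not overlap.

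Pooled over the fat content of the diet, Slc40a1 averaged 4.43 RPKM in the 6 mice with the sugar drink and 2.69 RPKM in the 6 without it. The sugar main effect was 0.57 ± 0.16 (SE) in log2 after scaling between libraries by the TMM method, as for the other log2 differences with an SE. The two-sided exact permutation tests within diets used the values as deposited, where the sugar effect was 0.58 with p = 0.005, the smallest that 400 arrangements allow. On scaled values the exact permutation p was 0.01. The fat main effect was -0.38 ± 0.16 on scaled values (exact permutation p = 0.055) and -0.34 as deposited (exact permutation p = 0.045), so the scaling decides its side of 0.05. Slc40a1 averaged 3.10 RPKM on high fat and 4.03 RPKM on normal fat. Neither passed limma's test over all genes (adjusted p = 0.999 for sugar and 0.9997 for fat). The interaction, that is the sugar difference on high fat minus that on normal fat, was 0.30 ± 0.33 with an unadjusted 95% interval of -0.42 to 1.02 (limma adjusted p = 0.99996).

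The 4 libraries apart hold 1 mouse per diet, with Slc40a1 at 4.52 in NF_Sugar against 4.10 RPKM in NF and at 3.14 in HF_Sugar against 2.60 RPKM in HF. These gaps were smaller than the SD of the NF and HF groups, so no difference can be read from them. Among the other 8 libraries the sugar effect was 0.80 in log2 on the values as deposited. Its exact permutation p was 0.0556, the smallest that 36 arrangements allow. Leaving out any 1 library left the exact permutation p of the sugar effect at 0.005 to 0.01. The fat effect was less steady: without 9 of the 12 libraries, 1 at a time, its exact permutation p lay at 0.05 or more (up to 0.105, without NF_Sugar replicate 3). Several differences between single groups also turned on 1 mouse. HF_Sugar minus NF lay at 0.01 without NF replicate 3, at 0.02 without HF_Sugar replicate 1 and at 0.38 without NF replicate 2. HF minus NF lay at -0.32 without HF replicate 1 and at -0.34 without NF replicate 2, and NF_Sugar minus NF at 0.24 without NF replicate 3. The interaction lay at 0.09 without HF replicate 1 and at 0.12 without NF replicate 2. Slc40a1 rested on 269 to 1053 reads per library, and counting error alone gives a CV of 6.10% at the lowest of these.

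Ferroportin is made by enterocytes and by macrophages that recycle red cells, so markers of both were read beside it. The summed level of 11 macrophage markers was 134 to 208 RPKM in NF, 138 to 250 in NF_Sugar, 109 to 256 in HF and 137 to 279 in HF_Sugar, so the groups overlapped, with Vsig4 at 0 in 9 libraries. Lyz2 alone made 51.4 to 177 RPKM of this sum. Counted by gene, 7 of 8 tested macrophage markers were higher in the sugar main effect (median 0.08, against -0.01 over all genes tested). In HF_Sugar against HF 7 of 8 were higher (median 0.23), and in HF against NF 6 of 8 were lower (median -0.09, against -0.01), with 0 called in each. The 8 enterocyte markers summed to 9571 to 12534 RPKM in NF, 5528 to 11777 in NF_Sugar, 10559 to 20827 in HF and 6923 to 9223 in HF_Sugar. HF and HF_Sugar did not overlap in this sum, with HF the higher, nor did NF and HF_Sugar, with NF the higher. Apoa1 alone made 2678 to 10097 RPKM of it, and Fabp2 847 to 6136 RPKM. By gene, on scaled values, 0 of 8 enterocyte markers were higher and 8 lower in the sugar main effect (median -0.34). In HF_Sugar against HF 8 of 8 were lower (median -0.71), and in HF against NF 7 of 8 were higher (median 0.27), with 0 called in each. The part of both marker lists in the Slc40a1 difference was not tested.

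Over the 12 libraries, the 3 genes with the pattern most like Slc40a1, among 17661 others, were Gm16000 (Pearson r = 0.92), the antimicrobial lectin Reg3g (r = 0.91) and Nfkbiz (r = 0.90), a regulator of inflammatory transcription. Over the 8 libraries outside the 4 apart, their r was 0.94, 0.93 and 0.94. The points share library and tissue piece, so these values are descriptions. HF replicate 1 held the lowest level of Slc40a1 (1.25 RPKM), of Reg3g (264 RPKM) and of Nfkbiz (3.15 RPKM). It also held the highest summed enterocyte markers (20827 RPKM), most of it from Apoa1 (10097 RPKM) and Fabp2 (6136 RPKM). The brush border marker Vil1 was at 488 RPKM there, within its range of 328 to 552 RPKM over the 12 libraries.

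**Figure D2:**
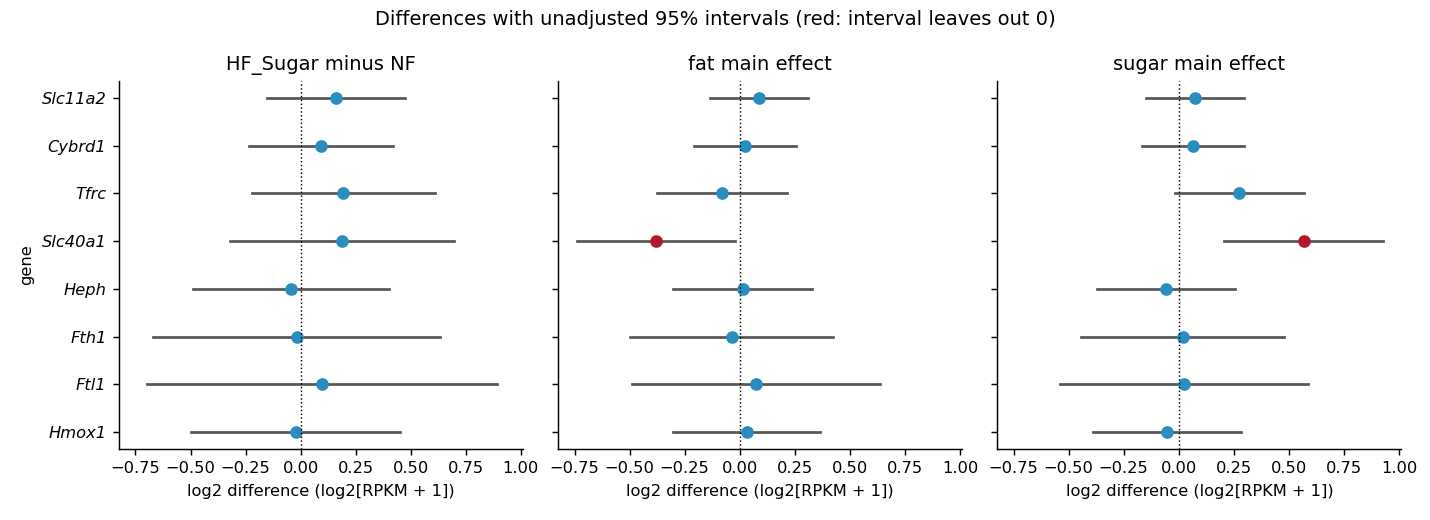
Log2 differences of the 8 genes on the log2(RPKM + 1) scale (x axes) in HF_Sugar minus NF, the fat main effect and the sugar main effect, with unadjusted 95% intervals from limma. Only the Slc40a1 intervals for fat (-0.38) and sugar (0.57) leave out 0, and neither passed after adjustment over all genes.

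Tfrc (chr16:32608920-32632794, plus strand), the transferrin receptor, was next after Slc40a1 in the size of its sugar main effect, which did not pass limma's test. It stood at 9.88, 12.1 and 10.97 RPKM in NF and at 11.1, 13.2 and 13.7 RPKM in NF_Sugar. On high fat it stood at 9.21, 8.84 and 11.8 RPKM in HF and at 11.04, 16.9 and 12.5 RPKM in HF_Sugar. The groups overlapped in each pair, and the highest value of all (16.9 RPKM) was HF_Sugar replicate 2, 1 of the 4 libraries apart.

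Tfrc averaged 13.1 RPKM with sugar and 10.46 RPKM without it, a main effect of 0.28 ± 0.13 in log2 on scaled values (exact permutation p = 0.06, limma adjusted p = 0.999). As deposited it was 0.29 (exact permutation p = 0.03), so its side of 0.05 also rests on the scaling. The fat main effect was -0.08 ± 0.13 (exact permutation p = 0.76). HF_Sugar minus HF was 0.39 ± 0.19, and 0.13 without the 4 libraries apart. Leaving out 1 library at a time moved the exact permutation p of the unscaled sugar effect between 0.02 and 0.075, and it was 0.05 or more for 6 of the 12. A list of 7 proliferation markers moved alongside: all 7 were higher in the sugar main effect (median 0.17, against -0.01 over all genes tested, 0 of 7 called). The summed level of that list was 37.7 to 48.0 RPKM in NF, 40.2 to 54.0 in NF_Sugar, 37.3 to 47.9 in HF and 42.1 to 62.0 in HF_Sugar, and its part in the Tfrc difference was not tested. The genes most like Tfrc were Swsap1 (r = 0.91), Ppfibp1 (r = 0.88) and Gm12611 (r = 0.88). Over the 8 libraries outside the 4 apart, their r was 0.80, 0.93 and 0.75.

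Of the apical uptake genes, Slc11a2 varied least over the libraries (1.51-fold from lowest to highest) and Cybrd1 more (3.33-fold). Slc11a2 (chr15:100387898-100425072, minus strand), which carries ferrous iron into the cell, stood at 7.001, 6.96 and 7.34 RPKM in NF and at 7.56, 7.58 and 6.97 RPKM in NF_Sugar. It stood at 6.498, 8.66 and 7.83 RPKM in HF and at 7.03, 8.71 and 9.84 RPKM in HF_Sugar. Both highest values were HF_Sugar mice, but the lowest HF_Sugar mouse lay within the NF range. HF_Sugar minus NF was 0.16 ± 0.14 in log2 (limma adjusted p = 0.99), and the fat and sugar main effects were 0.09 ± 0.10 and 0.07 ± 0.10 (exact permutation p = 0.135 and 0.285). Its closest genes were Znrf3 (r = 0.95), Gm8146 (r = 0.94) and Trak2 (r = 0.93).

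Cybrd1 (chr2:71117923-71142926, plus strand) reduces ferric iron at the brush border. It stood at 0.375, 0.490 and 0.248 RPKM in NF, 0.551, 0.631 and 0.221 in NF_Sugar, 0.486, 0.329 and 0.473 in HF and 0.274, 0.506 and 0.736 in HF_Sugar. The 4 groups overlapped throughout. These are 18 to 78 reads per library, and a count of 18 has an exact Poisson 95% interval of 10.7 to 28.4 reads, for counting error only. HF_Sugar minus NF was 0.09 ± 0.15, and the main effects were 0.02 ± 0.10 for fat and 0.07 ± 0.10 for sugar (exact permutation p = 0.61 and 0.435). No difference between diets was detectable at this depth and spread. The genes most like it were Ccl6 (r = 0.97), the crypt stem cell marker Olfm4 (r = 0.92) and the Paneth cell lysozyme Lyz1 (r = 0.92). Olfm4 ranged from 33.3 to 161 RPKM and Lyz1 from 1058 to 4870 RPKM over the same libraries.

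Heph (chrX:96455359-96574485, plus strand), the membrane ferroxidase that works with ferroportin, varied little apart from 1 mouse. It stood at 16.7, 17.5 and 18.2 RPKM in NF, 16.2, 18.8 and 17.7 in HF, and 18.1, 17.8 and 17.2 in HF_Sugar. In NF_Sugar it stood at 19.6, 11.5 and 19.0 RPKM, and the low value of replicate 2 lay below each other library. That mouse also had the lowest summed enterocyte markers of the 12 (5528 RPKM) and the lowest Vil1, a brush border protein (328 RPKM, against 453 to 552 elsewhere). Vil1 was also among the genes most like Heph (r = 0.94), after Gng12 (r = 0.97) and Picalm (r = 0.96). HF_Sugar minus NF was -0.04 ± 0.20, the fat main effect 0.01 ± 0.14 and the sugar main effect -0.06 ± 0.14 (exact permutation p = 0.86 and 0.925).

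Ferritin levels varied widely within each diet. Fth1 (chr19:9980598-9985098, plus strand), the heavy chain that oxidises iron for storage, stood at 1072, 879 and 1375 RPKM in NF, 829, 1498 and 1316 in NF_Sugar, 1586, 853 and 1157 in HF, and 1492, 865 and 1114 in HF_Sugar. Ftl1 (chr7:45457944-45459884, minus strand), the light chain that aids the iron core, stood at 477, 294 and 346 RPKM in NF, 359, 535 and 466 in NF_Sugar, 652, 357 and 457 in HF, and 661, 275 and 375 in HF_Sugar. The ranges of the 4 groups overlapped for both chains. The Fth1 means ran from 1108 RPKM (NF) to 1214 (NF_Sugar), and the Ftl1 means from 372 (NF) to 488 RPKM (HF). HF_Sugar minus NF was -0.02 ± 0.29 for Fth1 and 0.10 ± 0.36 for Ftl1, and HF minus NF was 0.03 ± 0.29 and 0.32 ± 0.36. The interaction was -0.13 ± 0.42 for Fth1 and -0.49 ± 0.51 for Ftl1. The fat main effects were -0.04 ± 0.21 and 0.07 ± 0.25 (exact permutation p = 0.96 and 0.65), and the sugar main effects 0.02 ± 0.21 and 0.02 ± 0.25 (exact permutation p = 0.895 and 0.85). The intervals of these differences are wide, from -0.67 to 0.64 for Fth1 and from -0.70 to 0.89 for Ftl1 in HF_Sugar minus NF, so these values do not show that ferritin was alike between the diets.

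The 4 lowest Fth1 values were those of the 4 libraries that stood apart. Fth1 was 856 ± 21.1 RPKM (SD, n = 4) in those libraries and 1326 ± 195 RPKM (n = 8) in the others, with no overlap, as was the case for 12.5% of all genes tested. Ftl1 was 321 ± 43.2 against 496 ± 115 RPKM, with overlap. The pseudogene Fth-ps2 went the other way, at 34.4 to 38.4 RPKM in the 4 libraries and 11.4 to 25.1 in the other 8, and Ftl1-ps2 was at 3.32 to 5.66 against 9.40 to 35.7 RPKM. These 4 libraries were picked from the data and hold 1 mouse of each diet, so the values are a description with no test. They also had the lowest shares of reads in genes, and the part of this in the ferritin values was not tested. Among the remaining 8 libraries the 2 Fth1 values of each group were 1072 and 1375 (NF), 1498 and 1316 (NF_Sugar), 1586 and 1157 (HF), and 1492 and 1114 RPKM (HF_Sugar).

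Ferritin pseudogenes are near copies of the ferritin mRNAs, and Ftl1-ps1 (126 to 267 RPKM) and Ftl2-ps (107 to 195 RPKM) reached a good part of the Ftl1 level. Reads could have been split among them in mapping, so the Ftl1 and Fth1 levels are uncertain. The genes most like Fth1 included Selenoh (r = 0.96) and Gm45734 (r = 0.96), and those most like Ftl1 were Mpv17l2 (r = 0.94), Sct (r = 0.94) and Tspan15 (r = 0.93).

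**Figure D3:**
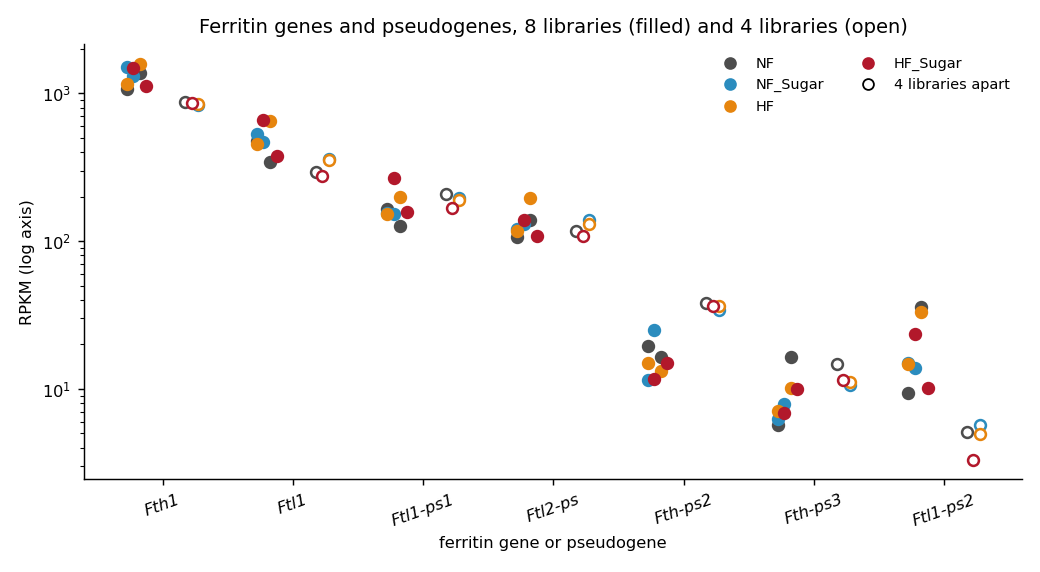
RPKM (log axis) of Fth1, Ftl1 and 5 ferritin pseudogenes (x axis), 1 circle per mouse, coloured by diet, with the 4 libraries that stood apart as open circles to the right of the other 8. Fth1 and Ftl1-ps2 were lower in the 4 open libraries and Fth-ps2 was higher, without overlap, and the 4 open libraries hold 1 mouse of each diet.

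Hmox1 (chr8:75093621-75100589, plus strand), the inducible enzyme that opens the heme ring, stood at 1.64, 1.31 and 0.591 RPKM in NF and at 0.672, 0.707 and 1.20 RPKM in NF_Sugar. It stood at 0.693, 1.08 and 1.19 RPKM in HF and at 0.938, 1.31 and 1.33 RPKM in HF_Sugar. The NF mice held both the lowest and the highest of the 12 values. The values rest on 25 to 112 reads per library. HF_Sugar minus NF was -0.02 ± 0.21, and the fat and sugar main effects were 0.03 ± 0.15 and -0.05 ± 0.15 (exact permutation p = 0.635 and 0.825). The genes most like it were AC129016.2 (r = 0.94), Elk4 (r = 0.90) and Hnrnpa3 (r = 0.89).

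Counted together, 0 of the 8 iron genes passed limma's adjusted p of 0.05 in any of the 8 comparisons. The share of all 17662 genes that passed was 0% in HF_Sugar against NF, HF against NF, NF_Sugar against NF, both main effects and the interaction, and 0.00566% in HF_Sugar against HF and in HF_Sugar against NF_Sugar. At an unadjusted limma p under 0.05, Slc40a1 was the 1 iron gene in HF against NF, HF_Sugar against HF, the fat main effect and the sugar main effect. In those comparisons 616, 743, 447 and 623 of all genes tested did so. In HF_Sugar against NF, NF_Sugar against NF, HF_Sugar against NF_Sugar and the interaction 0 iron genes did so, and 750, 313, 290 and 426 of all genes. Of the 16 exact permutation tests, unadjusted, 3 gave p of 0.05 or less (Slc40a1 for sugar and fat, Tfrc for sugar). With TMM scaling 1 of these 3 did so (Slc40a1 for sugar). In the sugar main effect 6 iron genes were higher and 2 lower (median 0.05, against -0.01 over all genes tested), and in the fat main effect 5 were higher and 3 lower (median 0.02, against -0.01), or 6 and 2 on the values as deposited.

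The other genes of the pathway were read in 5 lists with 76 genes, of which 63 could be tested, and 0 of the 63 were called by limma in any comparison. At an unadjusted p under 0.05 stood 1 gene in HF_Sugar against NF (Slc22a17), 1 in HF against NF (Hif1a) and 2 in HF_Sugar against HF (Blvrb and Abcb6, the latter named after its values were seen). Of 16 tested genes for iron reduction, transport and binding, 10 were higher and 6 lower in the sugar main effect (median 0.11, against -0.01 over all genes). Named by the smallest p in HF_Sugar against NF, the lipocalin receptor Slc22a17 was at 2.66 ± 0.289 RPKM in HF_Sugar and 1.73 ± 0.596 in NF. The iron chaperone Pcbp2 was at 22.7 ± 1.07 against 29.0 ± 10.2 RPKM, and the metal importer Slc39a14 at 8.02 ± 0.241 against 6.00 ± 0.394 RPKM (SD, n = 3 each). The iron regulation list, with the hairpin-binding proteins and the oxygen sensors, had 5 genes higher and 9 lower in the sugar main effect (median -0.05).

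In that regulation list, the ligand Bmp6 was at 0.703 ± 0.0939 RPKM in HF_Sugar and 0.470 ± 0.263 in NF, and the hypoxia factor Hif1a at 3.63 ± 0.305 against 4.44 ± 0.588 RPKM. Aco1, the iron regulatory protein that doubles as cytosolic aconitase, was at 21.2 ± 1.09 against 23.3 ± 3.16 RPKM. Of the 11 genes of iron-sulfur cluster assembly, 11 had negative log2 differences in HF minus NF on scaled values (median -0.14, against -0.01 over all genes) and 8 as deposited (median -0.10, against 0.03), and 0 of 11 had an unadjusted p under 0.05. Nfs1 (5.15 ± 0.567 in HF_Sugar against 5.78 ± 0.997 RPKM in NF), Hscb (5.28 ± 1.04 against 6.37 ± 2.19) and Nfu1 (1.71 ± 0.514 against 2.23 ± 0.725) represent that list. The single values of HF_Sugar and NF overlapped for each of these genes.

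Heme synthesis showed no common direction with sugar (4 of 8 tested genes higher, 4 lower, median 0.01). Uros was at 2.17 ± 0.437 RPKM in HF_Sugar against 2.31 ± 0.324 in NF, Alad at 9.48 ± 0.645 against 10.4 ± 1.72, and Alas1, the first enzyme of the path, at 15.0 ± 1.4 against 15.8 ± 1.20 RPKM. In heme transport and breakdown 6 of 14 tested genes were higher and 8 lower with sugar (median -0.03). The biliverdin reductase Blvrb was at 4.54 ± 0.482 RPKM in HF_Sugar against 5.88 ± 0.519 in NF, and the constitutive heme oxygenase Hmox2 at 8.32 ± 1.04 against 9.50 ± 2.17 RPKM. Nfe2l2, a factor that drives Hmox1, was at 26.1 ± 3.51 against 19.7 ± 5.85 RPKM.

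**Figure D4:**
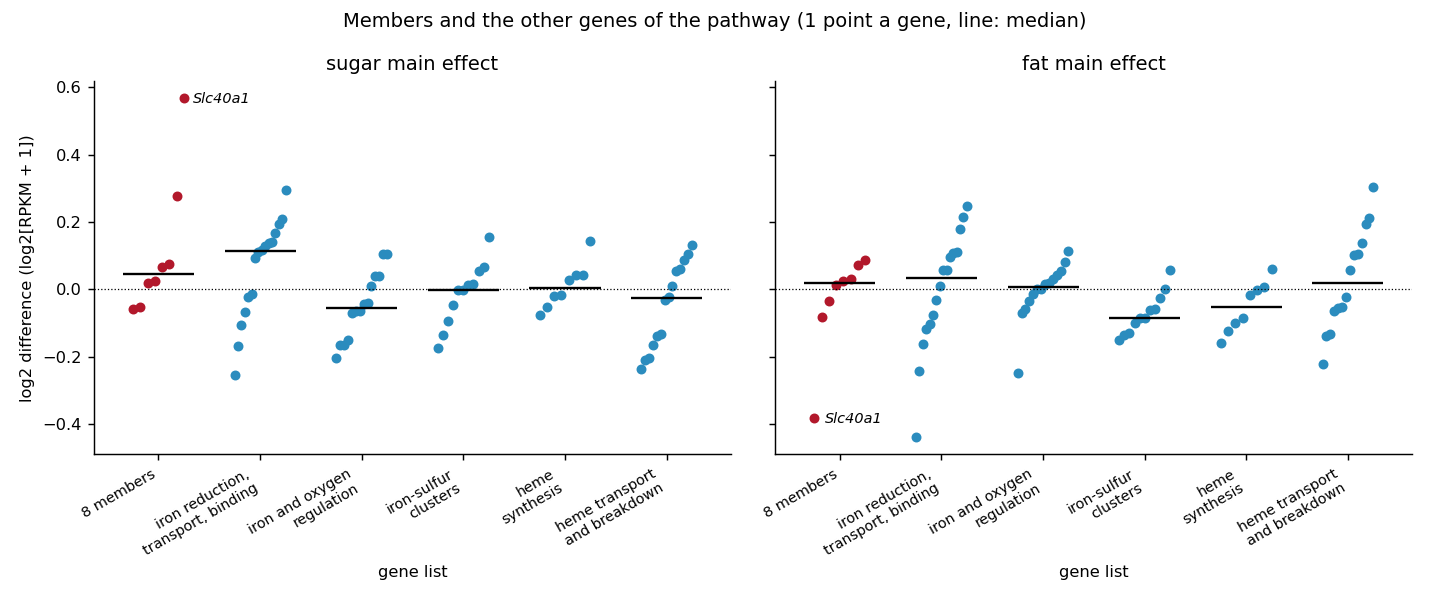
Log2 differences on the log2(RPKM + 1) scale (y axes) of the 8 iron genes (red) and of the tested genes of 5 pathway lists (blue) in the sugar and fat main effects, 1 point per gene, with the median as a line. Slc40a1 lies at 0.57 for sugar and at -0.38 for fat, and the list medians lie between -0.08 and 0.11.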

How the data were processed

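Total RNA of snap-frozen ileum (integrity number above 8) was sequenced in 12 libraries. Per the labels, library input was 5 µg, and the paper's methods give another amount. By those methods an Ion Proton was the sequencer, and the authors used STAR within Partek Flow for alignment to the mm10 build. The deposited table holds RPKM, taken as that unit because low values are whole reads over exon length (87.4% to 88.9% within 0.03). The 12 per-sample files were identical to its columns. Of 44231 rows, 26 with bare numbers as names were left out.

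The members, gene lists and tests were chosen with earlier results of these data known. Libraries were scaled by the TMM method, a trimmed mean of ratios (30% of ratios and 5% of means trimmed at each end). In limma 3.58.1 under R 4.3.3, with a trend and 1 mean per group over all 12 libraries (8 residual degrees of freedom), log2(RPKM + 1) was the response. P-values were adjusted by Benjamini-Hochberg over the 17662 genes that reached 0.5 RPKM in 3 or more libraries. Main effects average the difference over the other factor. Exact tests, two-sided and unadjusted, permuted unscaled log2(RPKM + 1) within the other factor. Exact tests on scaled values and list counts on unscaled values were added after seeing the data. Named genes were the 8 members, the 3 genes of lowest p for HF_Sugar against NF in each pathway list, and the 3 genes most like each member. One of the latter is not reported here. Marker lists for enterocytes, ileum, duodenum, macrophages and proliferation were read beside members. The labels do not say whether cages were shared, so the p-values rest on taking each mouse as independent. If mice of a diet shared a cage, diet and cage cannot be told apart. The functions were tested on simulated data. Replicate numbers met the pairing rule for HF_Sugar with NF and with HF only, so mice were treated as unpaired.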

Additional observations from a re-analysis of the deposited data

Results flagged for a closer look

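Heph in NF_Sugar replicate 2 was at 11.5 RPKM, far from the other mice on normal fat (next lowest 16.7 RPKM, gap over range 0.646) and from the other mice with sugar (next lowest 17.2 RPKM, gap over range 0.707). Both gaps exceed Dixon's 95% limit for 6 libraries. Both concern the same library, out of 32 sets of 6 examined, and chance flags about 1 in 20. The same library had the lowest summed enterocyte markers (5528 RPKM), and the part of these in the Heph value was not tested.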

How the results depend on the processing

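In 23 other settings (11 of processing or sample choice, 12 leaving out 1 library), 0 of the iron genes and 0 of the other pathway genes tested were called. The smallest limma adjusted p of an iron gene was 0.571. With a mean of at least 5 RPKM, 5 of the 8 iron genes were tested, without Slc40a1, Cybrd1 and Hmox1. Fewer than 63 other pathway genes were tested there. Of 30 differences followed, 16 kept their direction in every setting that tested the gene, among them all 8 of Slc40a1. The other 14 turned at least once, all of them smaller than their SE. Leaving out 1 library moved the Slc40a1 differences over 0.01 to 0.38 (HF_Sugar minus NF), -0.71 to -0.32 (HF minus NF), 0.24 to 0.60 (NF_Sugar minus NF), 0.51 to 0.84 (HF_Sugar minus HF), -0.40 to -0.11 (HF_Sugar minus NF_Sugar), -0.47 to -0.27 (fat), 0.46 to 0.66 (sugar) and 0.09 to 0.48 (interaction). The 1 gene called in HF_Sugar against HF was lost (0 genes) with quantile normalization, a pseudocount of 0.1, no filter, a mean of at least 5 RPKM, only the groups compared, without the 4 libraries apart, with them as covariate and with the replicate block. In HF_Sugar against NF_Sugar it was lost (0 genes) in all 11. That gene, Il1b, reached at most 2.96 RPKM, so it was left out by the filter at a mean of 5 RPKM. Its loss in that setting therefore says nothing about the call. With no filter, 4 genes were called in each comparison against NF. Leaving out 1 library gave 0 to 1 genes in HF_Sugar against NF, 0 to 2 in HF against NF, 0 to 1 in NF_Sugar against NF, 0 to 2 in HF_Sugar against HF, 0 to 1 in HF_Sugar against NF_Sugar, the sugar effect and the interaction, and 0 in the fat effect.

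With RPKM as deposited, HF_Sugar minus NF turned for Heph (0.0199), Fth1 (0.0501) and Hmox1 (0.0363), and the fat effect for Fth1 (0.0146). Quantile normalization turned HF_Sugar minus NF for Heph (0.0399) and Fth1 (0.12) and the fat effect for Fth1 (0.11), and a pseudocount of 0.1 turned Hmox1 (0.0330). Without the 4 libraries apart, HF_Sugar minus NF turned for Fth1 (0.0642) and Hmox1 (0.0108), the fat effect for Fth1 (0.0097) and the sugar effect for Hmox1 (0.0084). Leaving out 1 library moved HF_Sugar minus NF over -0.0056 to 0.20 for Cybrd1, -0.14 to 0.0234 for Heph, -0.25 to 0.15 for Fth1, -0.28 to 0.36 for Ftl1 and -0.29 to 0.16 for Hmox1. It moved the fat effect over -0.0425 to 0.0773 for Cybrd1, -0.11 to 0.10 for Heph, -0.15 to 0.0741 for Fth1, -0.11 to 0.20 for Ftl1 and -0.10 to 0.12 for Hmox1. It moved the sugar effect over -0.14 to 0.0659 for Heph, -0.10 to 0.13 for Fth1, -0.16 to 0.15 for Ftl1 and -0.19 to 0.0372 for Hmox1. The cause was not tested.

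With the replicate number as a block, the sugar effect of Slc40a1 was 0.57 (adjusted p = 0.999), with the same values in the balanced design, and 0 genes were called in each comparison. The replicate block changed no other call. With TMM scaling, chosen after seeing the data, the exact permutation p was 0.01 for the sugar effect of Slc40a1, 0.055 for its fat effect and 0.06 for the sugar effect of Tfrc. With median of ratios scaling the p of the Slc40a1 fat effect was 0.05. With 3 mice a group, Cybrd1 and Hmox1 are also limited by counts of 18 to 112 reads.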
